A study of Mus musculus with 4 samples.

Results

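The germ cells described here carried transcripts of *Meioc*, a gene switched on around the entry into meiosis, together with transcripts of *Plk1* and *Ccnb1*, which drive mitosis. A cell was counted as double-positive when *Meioc* reached at least 4 unique molecular identifiers (UMIs, single counted transcripts) per 10000, *Plk1* and *Ccnb1* summed to at least 3 UMIs, and *Dmrtb1*, a transcription factor of spermatogonia, had at most 1 UMI. Of 29592 barcodes with more than 1000 detected genes and less than 10% mitochondrial UMIs, 1770 met these limits. The cells were chosen by the measured values of *Meioc*, *Plk1*, *Ccnb1* and *Dmrtb1*, which are therefore given only as a description.

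Single-cell RNA sequencing was run on dissociated testes of C57BL/6N mice at postnatal day 15, with 2 wild-type and 2 *Meioc*-null libraries. Each library came from 1 testis of 1 pup, and each of the 2 batches was a littermate pair with 1 pup of each genotype. All pups also carried the *Hspa2tm1Dix* allele in the heterozygous state and a homozygous *ROSA26-tdTomato* reporter whose stop cassette was intact, and interstitial cells were discarded during dissociation. Which part of *Meioc* the null allele lacks was not given in the sources read, and its 3′ transcript counts therefore do not check the labels.

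During spermatogenesis, spermatogonia multiply by mitosis, in which the kinase PLK1 and cyclin B1 carry the cell into chromosome segregation. Germ cells that enter meiosis replicate their DNA and then hold back from division through a long prophase, while the chromosome axis (SYCP3, HORMAD1) is built, SPO11 breaks the DNA and DMC1 repairs the breaks from the homologous chromosome. MEIOC, with its partners YTHDC2 and RBM46, is known to restrain mitotic transcripts in this prophase, and spermatocytes that lack it arrest early.

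The 4 libraries kept 6334 and 8494 wild-type and 7550 and 7214 *Meioc*-null cells (replicates 1 and 2), with median depths of 11854 to 14842 UMIs. Double-positive cells had medians of 18600 and 18261.5 UMIs in wild-type cells and 12485 and 15523 in *Meioc*-null cells, so the wild-type cells were deeper. Pairs of libraries shared 12 to 16 kept barcodes. Scrublet marked 8.33 and 9.27% of wild-type and 8.65 and 5.78% of *Meioc*-null double-positive cells as doublets.

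The label was checked with 2 mitotic genes that the limits did not use. *Cenpa* encodes the histone variant that marks centromeres. With every cell thinned to 8000 UMIs, its transcript was seen in 58.7 and 53.4% of wild-type and 81.5 and 77.8% of *Meioc*-null double-positive cells. *Depdc1a*, a gene of mitotic progression, was seen in 6.6 and 5.1% of wild-type and 19.7 and 25.3% of *Meioc*-null cells. Peritubular myoid-like cells, which should lack germ-cell RNA and give the background, held *Cenpa* in 5.1 to 11.1% and *Depdc1a* in 0.9 to 4.0%. *Cenpa* therefore stood above the myoid-like cells in all 4 libraries. *Depdc1a* was sparse in the wild-type double-positive cells, but it was also sparse in wild-type dividing spermatogonia, defined below (7.5 and 7.8%). It was seen less often in wild-type myoid-like cells (1.25 and 0.93%) and in wild-type *Meioc*-expressing cells with no *Plk1* or *Ccnb1* UMI (1.2 and 2.2%). *Meioc*-expressing cells with no *Plk1* or *Ccnb1* UMI held *Cenpa* in 26.6 and 22.2% in wild type and 41.5% in *Meioc*-null replicate 1. Dividing spermatogonia held *Cenpa* in 82.2, 86.0 and 88.8% of the same libraries. The double-positive shares of these libraries lay between the 2 populations. The germ-cell helicase *Ddx4* was seen in 89.8 to 92.9% of double-positive cells against 1.6 to 9.0% of myoid-like cells.

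On GRCm38 (GENCODE vM21), *Meioc* (ENSMUSG00000051455) lies on chromosome 11 at 102663716 to 102682237, *Plk1* (ENSMUSG00000030867) on chromosome 7 at 122159439 to 122169873, and *Ccnb1* (ENSMUSG00000041431) on chromosome 13 at 100778650 to 100786570. *Cenpa* (ENSMUSG00000029177) lies on chromosome 5 at 30666777 to 30674830 and *Depdc1a* (ENSMUSG00000028175) on chromosome 3 at 159495433 to 159529955. Genes that peak in G2 and M phase often carry a cell cycle homology region, a short promoter element. The letters TTTGAA and TTCGAA were searched on both strands (TTCAAA is TTTGAA read on the other strand) in RefSeq promoters of GRCm38.p6. They were present in 33 of 41 matched genes (80.5%) of the cyclin, kinase, spindle and kinetochore lists, which hold 53 genes, and in 7 of 34 matched genes (20.6%) of the meiotic axis and recombination lists, which hold 43. The share over all 27025 genes with a promoter was 21.7%. Windows of 30 bases with the matching letters in capitals are shown for mitotic genes whose transcripts were counted in the double-positive cells, and they lie at chr7:122159453-122159482 (+) for *Plk1*, chr5:30666890-30666919 (+) for *Cenpa*, chr3:159495405-159495434 (+) for *Depdc1a*, chr4:118437344-118437373 (-) for *Cdc20* and chr2:164769888-164769917 (+) for *Ube2c*.
Plk1: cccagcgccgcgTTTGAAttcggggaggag
Cenpa: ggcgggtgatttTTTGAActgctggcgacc
Depdc1a: cgctcggagataTTCAAAtcagcagcgcgg
Cdc20: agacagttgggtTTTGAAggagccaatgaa
Ube2c: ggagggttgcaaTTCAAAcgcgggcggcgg
These matches describe the letters and are not evidence of binding. The *Ccnb1* and *Ccna2* windows held no match.

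Double-positive cells took a larger share of *Meioc*-null than of wild-type libraries. They numbered 168 and 302 in wild-type cells and 694 and 606 in *Meioc*-null cells. As a share of kept cells this was 2.65% (95% exact Clopper-Pearson interval 2.27 to 3.08) and 3.56% (3.17 to 3.97) in wild type, and 9.19% (8.55 to 9.87) and 8.40% (7.77 to 9.06) in *Meioc*-null. The groups did not overlap, with means of 3.10% ± 0.639 and 8.80% ± 0.560 (SD, n = 2), a ratio of 2.83. The difference was 5.69 percentage points, and it was 6.54 in batch 1 and 4.84 in batch 2. The exact two-sided permutation test gave p = 0.333, the smallest value that 2 libraries against 2 allow. The intervals cover counting error only.

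The share also differed among *Meioc*-expressing cells, which met the *Meioc* and *Dmrtb1* limits whatever their *Plk1* and *Ccnb1* and numbered 8634. Double-positive cells made up 10.9 and 12.9% of them in wild-type cells and 25.5 and 29.9% in *Meioc*-null cells (11.9% ± 1.36 against 27.7% ± 3.12, SD, n = 2), and the permutation p was again 0.333. This difference was 15.8 percentage points.

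The direction depended on the mitochondrial limit. Double-positive cells had median mitochondrial shares of 5.68 and 5.87% in wild-type cells and 7.02 and 7.32% in *Meioc*-null cells, while *Meioc*-expressing cells with no *Plk1* or *Ccnb1* UMI had 6.85, 7.18, 6.61 and 6.99% in the same library order. Of the wild-type double-positive cells 28.6 and 24.8% lay below 5%, against 3.75 and 3.80% of the *Meioc*-null ones. With a limit of 5%, 48 and 75 wild-type and 26 and 23 *Meioc*-null cells remained, and the difference turned to -1.57 percentage points of kept cells and -8.81 of *Meioc*-expressing cells. Between 7.5 and 10% mitochondrial UMIs the shares were 1.64 and 1.87% in wild-type cells and 11.8 and 12.3% in *Meioc*-null cells. What moves the mitochondrial share in these cells was not tested. When all cells were thinned to 8000 UMIs and chosen again, the shares were 2.85 and 2.32% in wild-type cells and 6.66 and 4.51% in *Meioc*-null cells.

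**Figure D1:**
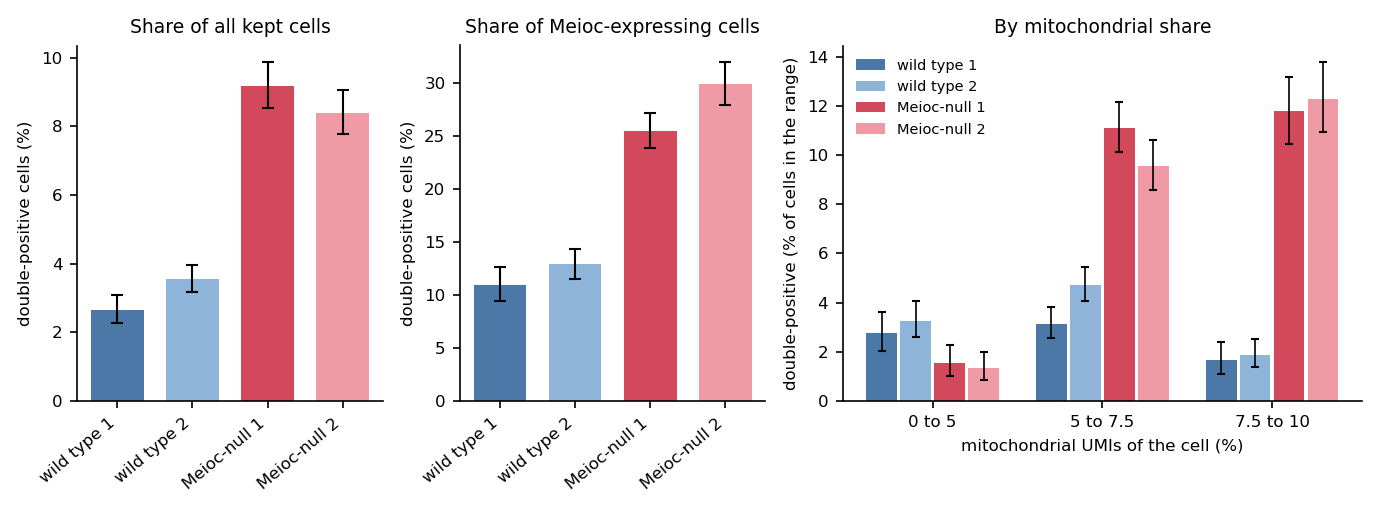
Share of double-positive cells in percent, 1 bar per library with the 95% exact interval, of all kept cells (left), of *Meioc*-expressing cells (middle) and of cells in 3 ranges of mitochondrial UMIs (right). *Meioc*-null bars (9.19 and 8.40%) stand above wild-type bars (2.65 and 3.56%) of kept cells, but below them in the range of 0 to 5% mitochondrial UMIs.

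Whether the cells kept meiotic transcripts beside the mitotic ones was asked by counting, in each cell thinned to 8000 UMIs, how many of 43 meiotic genes (axis and synaptonemal complex, double-strand breaks and recombination) and of 53 mitotic genes (cyclins and kinases, spindle and kinetochore) had a UMI. For comparison, *Meioc*-only cells met the same *Meioc* and *Dmrtb1* limits with no *Plk1* or *Ccnb1* UMI (4475 cells). Dividing spermatogonia had at least 3 UMIs of *Plk1* and *Ccnb1*, at least 2 of *Dmrtb1* and *Meioc* under 4 per 10000 (3117 cells), and their differentiation markers *Kit* (138 to 203 counts per 1000000 summed UMIs, CPM) and *Dnmt3b* (74.6 to 101 CPM) were present in every library.

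*Meioc*-null double-positive cells held both sets together. Their medians were 26 and 25 meiotic genes and 31 and 29 mitotic genes per cell. *Meioc*-only cells of the same libraries had 21 and 22 meiotic and 22 and 21 mitotic genes, and dividing spermatogonia had 14 and 13 meiotic and 30 and 28 mitotic genes. After thinning, the null double-positive cells were thus at or above each comparison population on the set that marks it. The populations were chosen before thinning. At full depth, dividing spermatogonia of the *Meioc*-null libraries, which were deeper, had medians of 46 and 46 mitotic genes, above the double-positive cells (37 and 38). Wild-type double-positive cells had medians of 18 and 20 meiotic and 25 mitotic genes in each library. Both lay between those of the comparison populations, which were 24 and 25 meiotic genes in *Meioc*-only cells and 28 and 27 mitotic genes in dividing spermatogonia. Myoid-like cells had 1 to 3 meiotic and 2 or 3 mitotic genes. Before thinning, the medians of double-positive cells were 25, 26, 29 and 31 meiotic and 40, 38, 37 and 38 mitotic genes in wild type 1 and 2 and *Meioc*-null 1 and 2. Thinning left out 1, 6, 40 and 20 shallower cells.

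A cell was counted as holding both sets when it reached the median meiotic count of its library's *Meioc*-only cells and the median mitotic count of its library's dividing spermatogonia. This held for 1.8 and 4.39% of wild-type and 51.7 and 49.5% of *Meioc*-null double-positive cells (3.09% ± 1.84 and 50.6% ± 1.55, SD, n = 2). The difference of 47.5 percentage points was beyond the spread between libraries, and it was not tested. *Meioc*-only cells reached both limits in 0.70, 1.27, 7.27 and 10.0% and dividing spermatogonia in 0.23 to 1.28%. These comparison shares are a description, because the limits that chose those cells also bear on their mitotic or meiotic counts. With doublet-marked cells removed the double-positive shares were 1.96, 0.75, 52.3 and 43.6%. With the same limits in all libraries (25 meiotic and 30 mitotic genes) they were 0, 2.7, 38.1 and 26.1%. In contrast to the share of cells, this difference kept its direction below 5% mitochondrial UMIs, where 0 of 47 and 1.35% of 74 wild-type cells and 34.8% of 23 and 42.9% of 21 *Meioc*-null cells held both sets. The 0 of 47 allows a share of up to 6.38%, taken as 3 divided by 47. This approximate limit covers counting error only.

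**Figure D2:**
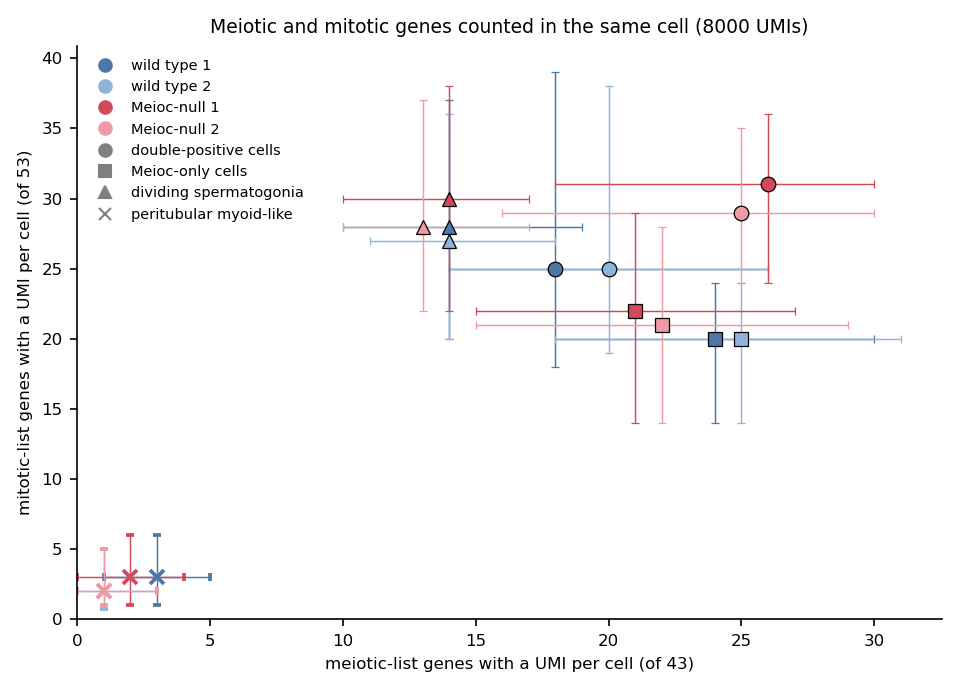
Median number of meiotic-list genes (of 43, horizontal) and mitotic-list genes (of 53, vertical) with a UMI per cell thinned to 8000 UMIs, by library and population, with bars from the 10th to the 90th percentile of cells. Double-positive *Meioc*-null cells sit at the upper right (26 and 25 meiotic, 31 and 29 mitotic genes), and wild-type ones between the *Meioc*-only cells and the dividing spermatogonia.

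The pairs of transcripts counted in the same thinned cell were all more frequent in *Meioc*-null than in wild-type double-positive cells. *Sycp3* occurred with *Cenpa* in 56.3 and 52.0% of the wild-type and 81.2 and 77.1% of the *Meioc*-null cells. Dividing spermatogonia held this pair more often in wild type (73.6 and 79.0%) and about as often in *Meioc*-null (80.4 and 76.5%), so it did not set the double-positive cells apart from them. *Dmc1*, the meiotic recombinase, occurred with *Ube2c*, a ubiquitin-conjugating enzyme of mitotic exit, in 27.5 and 31.4% of wild-type and 65.9 and 63.7% of *Meioc*-null double-positive cells. The same pair was found in 19.3 to 28.5% of *Meioc*-only cells and 20.2 to 26.2% of dividing spermatogonia. *Prdm9*, the histone methyltransferase that places meiotic breaks, occurred with *Cenpa* in 18 and 14.5% of wild-type and 62.5 and 51.9% of *Meioc*-null double-positive cells. *Meioc*-only cells held that pair in 16.6, 13.8, 27.3 and 26.1% and dividing spermatogonia in 13.0 to 14.7%, so the wild-type double-positive shares were close to both. *Stra8*, the retinoic acid target that starts meiosis, occurred with *Cdc20*, the activator of the anaphase-promoting complex, in 37.1 and 30.7% and in 76.5 and 76.1%. The *Stra8* and *Cdc20* pair was found in 36.6, 35.6, 57.6 and 48.3% of dividing spermatogonia and 30.0, 21.9, 37.7 and 37.3% of *Meioc*-only cells (wild type 1 and 2, *Meioc*-null 1 and 2), so in wild type it was about as frequent in dividing spermatogonia. Myoid-like cells held the 4 pairs in at most 2.0%.

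Some single meiotic transcripts separated the genotypes, and others did not. *Stra8* was seen in 45.5 and 35.5% of wild-type and 97.1 and 95.4% of *Meioc*-null double-positive cells (3.0 to 16.6% of myoid-like cells). It was also more frequent in *Meioc*-null among dividing spermatogonia (48.3, 49.4, 77.7 and 65.3%, wild type 1 and 2, *Meioc*-null 1 and 2) and *Meioc*-only cells (88.4, 74.2, 99.6 and 99.5%), and the wild-type double-positive shares lay below both. *Gm4969*, which encodes the STRA8 partner MEIOSIN, was seen in 9.0 and 10.5% and in 53.4 and 47.6% (0 to 0.9% of myoid-like cells). *Meioc*-only cells had the other order, with 41.8 and 41.5% in wild type and 29.7% in *Meioc*-null replicate 1. Dividing spermatogonia of the same libraries held it in 6.2, 5.2 and 5.8%, so the wild-type double-positive shares were nearer to those. *Sycp3*, the axis protein, was seen in 97.0 to 99.7% of double-positive cells of every library, above its myoid-like shares of 10.2 to 31.0% but close to those of *Meioc*-only cells (99.0 to 99.7%) and dividing spermatogonia (88.6 to 92.5%). *Meiob* was seen in 38.9 and 49.0% of wild-type and 43.9 and 52.2% of *Meioc*-null double-positive cells. The opposite order was found for *Psma8*, the testis-specific proteasome subunit of spermatocytes, at 44.9 and 47.0% in wild-type cells and 16.4 and 16.9% in *Meioc*-null cells. Myoid-like cells held *Psma8* in 8.25, 3.27, 0.99 and 2.59% and dividing spermatogonia in 20.3, 19.9, 15.6 and 13.1%, so the *Meioc*-null double-positive shares were near those of dividing spermatogonia. *Piwil1*, the PIWI protein of pachytene cells, was seen in 33.5 and 22.3% of wild-type cells, but myoid-like cells of those libraries held it in 14.5 and 1.9%, and in *Meioc*-null cells it was seen in 0.3 and 0.5%.

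The wild-type double-positive cells were not uniform. Because the limit on *Plk1* and *Ccnb1* is a number of UMIs, deep cells can pass it at a low relative level, and 47.6 and 53% of wild-type cells and 36.7 and 51.8% of *Meioc*-null cells had under 3 UMIs of the pair per 10000. In the wild-type libraries those cells had median depths of 23546 and 23706.5 UMIs. *Sycp3* there reached 2805 and 3294 CPM, and at 6 or more per 10000 it was 673 and 812 CPM. *Cenpa* ran the other way, at 43.6 and 74.9 CPM and at 672 and 791 CPM. *Psma8* was at 474 and 384 CPM in the wild-type cells under 3 per 10000 and at 15.6 to 49.1 CPM in the others. *Sycp3* and *Psma8* were thus high at the other end of the wild-type range from *Cenpa*. *Prdm9* and *Stra8* did not follow *Sycp3*. From under 3, through 3 to 6, to 6 or more per 10000, wild-type *Prdm9* was at 18.4, 62.6 and 53.7 CPM in replicate 1 and 22.2, 52.2 and 44.6 CPM in replicate 2, and *Stra8* at 89.5, 241 and 161 CPM and at 103, 160 and 144 CPM, so both were lowest where *Cenpa* was lowest.

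In *Meioc*-null cells the same ranges held both kinds of transcript. From under 3, through 3 to 6, to 6 or more per 10000, *Sycp3* was at 2872, 2757 and 2102 CPM in replicate 1 and 3618, 3194 and 1687 CPM in replicate 2. *Cenpa* was at 229, 287 and 388 CPM in replicate 1 and 195, 289 and 551 CPM in replicate 2. *Prdm9* was at 261, 265 and 232 CPM and at 235, 189 and 114 CPM. Even the cells highest in *Plk1* and *Ccnb1* thus kept more *Sycp3* than the wild-type cells of that range. These values are a description, since the ranges come from the genes that chose the cells.

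**Figure D3:**
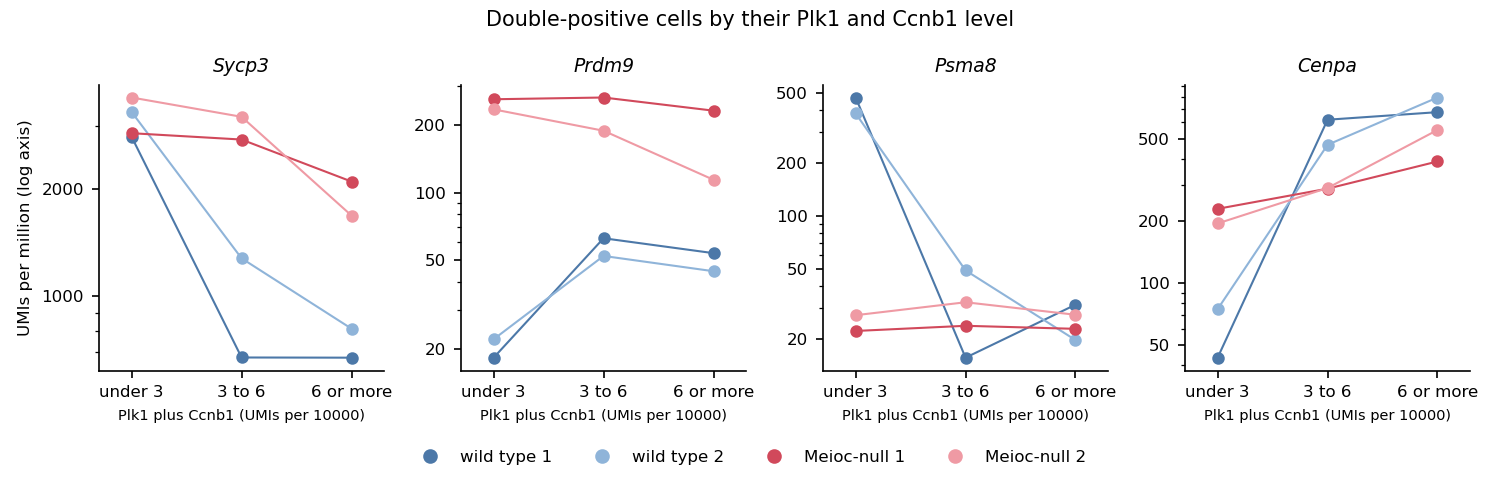
Levels of *Sycp3*, *Prdm9*, *Psma8* and *Cenpa* (CPM, log axis) in double-positive cells with under 3, 3 to 6 and 6 or more UMIs of *Plk1* and *Ccnb1* per 10000, 1 line per library. From the lowest to the highest range the wild-type lines fall for *Sycp3* and *Psma8* and rise for *Cenpa* and *Prdm9* (18.4 to 53.7 and 22.2 to 44.6 CPM). The *Meioc*-null lines change less for *Sycp3*, *Psma8* and *Cenpa*, and for *Prdm9* they fall (261 to 232 and 235 to 114 CPM).

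Cells just outside and just inside the limits are given as a description. With 2 UMIs of *Plk1* and *Ccnb1* there were 85, 185, 306 and 230 cells, with *Cenpa* at 59.3, 43.5, 221 and 191 CPM. With 3 UMIs there were 41, 98, 228 and 187 cells, with *Cenpa* at 80.5, 80.7, 238 and 206 CPM. *Meioc* of 3.5 to 4 per 10000 left out 37, 53, 59 and 48 cells, and 4 to 4.5 let in 31, 48, 60 and 52. A *Dmrtb1* count of 2 left out 67, 90, 54 and 47 cells. Of those inside, 564 and 475 *Meioc*-null cells but 96 and 164 wild-type cells had no *Dmrtb1* UMI.

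To ask which meiotic transcripts differed from those of other *Meioc*-expressing cells, UMI counts were summed per library and compared with *Meioc*-only cells by edgeR, over genes detected in 25% or more of the cells in either population. A call needed a Benjamini-Hochberg adjusted p under 0.05 and an absolute log2 fold change over 0.1. Fitted over both genotypes together, 228 of 6516 genes (3.5%) were called, 144 higher (2.21%) and 84 lower (1.29%) in double-positive cells. Without *Meioc*-null replicate 1 only 14 were called, and without any 1 of the other libraries 0 were called. In the fit with all libraries DESeq2 called 738 genes, and edgeR gave 1581 genes a p below 0.05 before adjustment. Of the axis list, 1 of 13 tested genes was called higher and 0 lower (median log2 fold change 0.00), and of the break and recombination list 1 of 28 was higher and 1 lower (median -0.18). The fold change was therefore also estimated in each genotype and its difference between genotypes was tested, a choice made after the values were seen. That way 3360 genes (51.6%) were called in *Meioc*-null (2123 without *Meioc*-null replicate 1), 4678 (71.8%) in wild type and 4374 (67.1%) for the difference.

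In *Meioc*-null, the double-positive cells held more axis and recombination transcripts than the *Meioc*-only cells. Of the 13 tested axis genes, 11 were higher and 0 lower (median 0.51), and of 28 break and recombination genes 19 were higher and 2 lower (median 0.44), where 25.8% of all tested genes were called in each direction and the median of all genes was 0.01. *Sycp3* was at 2730 and 3294 CPM against 1314 and 1886 CPM, and its log2 fold change with standard error was 0.91 ± 0.06 (adjusted p = 5.6e-08). *Hormad1*, which marks unsynapsed axes, was at 810 and 1030 CPM against 401 and 522 CPM (0.98 ± 0.06, adjusted p = 7.2e-09). *Sycp1*, of the synaptonemal complex, rose by 0.67 ± 0.08 (adjusted p = 2.8e-05). In these 3 genes both double-positive values lay above the *Meioc*-only values of their library.

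Values are given for some of the break and recombination genes. *Meiob*, a single-strand DNA-binding protein of meiotic recombination, was at 101 and 131 CPM against 33.1 and 64.5 CPM (1.27 ± 0.18, adjusted p = 7.5e-04). *Spo11*, the break-forming enzyme, was at 23.1 and 28.2 CPM against 6.64 and 14.7 CPM (1.29 ± 0.24, adjusted p = 1.9e-03). *Dmc1* rose by 0.48 ± 0.07 (319 and 309 CPM against 210 and 234 CPM, adjusted p = 2.8e-05). *Prdm9* rose by 0.49 ± 0.07 (259 and 208 CPM against 168 and 159 CPM, adjusted p = 5.0e-05).

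The meiotic entry list was mixed, with 3 of 9 genes higher and 5 lower (median -0.64). *Gm4969* was at 102 and 89.8 CPM against 48.9 and 64.1 CPM (0.75 ± 0.12, adjusted p = 7.9e-05). *Stra8* was at 1442 and 1235 CPM against 2115 and 1968 CPM and so fell (-0.64 ± 0.07, adjusted p = 2.2e-06). *Rec8*, the meiotic cohesin subunit, was at 39.0 and 31.7 CPM against 96.8 and 80.6 CPM (-1.35 ± 0.09), and *Hist1h2aa*, a germ-cell histone gene, at 276 and 334 CPM against 1344 and 1745 CPM (-2.36 ± 0.07, adjusted p = 1.0e-11). *Kit*, the receptor of differentiating spermatogonia, was at 48.1 and 43.8 CPM against 155 and 139 CPM (-1.70 ± 0.08, adjusted p = 1.7e-09). Among the 10 genes that fell most, 7 were histone genes of the *Hist1* cluster, and *Kit* was another. Among the 10 that rose most was *Rsph1*, a radial spoke gene of cilia and sperm tails, at 42.1 and 70.3 CPM against 4.53 and 3.14 CPM (3.76 ± 0.27). It is given as a description, because a gene nearly absent from *Meioc*-only cells could pass the filter on detection through the double-positive cells. As a description, with no test because these lists follow the *Plk1* and *Ccnb1* limit, the medians were 1.06 for 12 cyclin and kinase genes, 0.87 for 37 spindle and kinetochore genes and -0.43 for 29 S phase genes.

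The *Meioc*-null rises depended on the cells compared. Against *Meioc*-expressing cells with 1 or 2 UMIs of *Plk1* and *Ccnb1*, 1 axis gene (*Hormad1*, 0.34) was called (median 0.02) and 0 recombination genes were (median 0.03), where 1.49% of all genes were called higher, while *Hist1h2aa* (-1.16) and *Kit* (-0.72) were still called. With a mitochondrial limit of 5%, 5 of 12 axis genes and 5 of 27 recombination genes were called higher and 0 and 1 lower, where 4.8% of all genes were called higher. With the genotype in place of the library in the model 4 of 13 and 10 of 28 were higher, where 10.3% of all genes were.

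In wild type the axis and recombination lists went the other way, while the meiotic entry list leaned lower in both genotypes. Of the axis genes 2 were higher and 8 lower (median -0.50), of the recombination genes 6 were higher and 19 lower (median -0.67), and of the meiotic entry genes 1 was higher and 8 lower (median -0.84), where 38% of all genes were called higher and 33.8% lower. *Stra8* was at 128 and 120 CPM against 1351 and 965 CPM (-3.13 ± 0.08, adjusted p = 1.1e-12). *Prdm9* was at 32.8 and 31.1 CPM against 190 and 178 CPM (-2.46 ± 0.09, adjusted p = 3.3e-11). *Dmc1* was at 80.8 and 91.2 CPM against 244 and 266 CPM (-1.51 ± 0.08, adjusted p = 3.4e-10). All of these wild-type values lay below those of the *Meioc*-only cells of both libraries. *Sycp3* (2017 and 2558 CPM against 1790 and 2594 CPM) missed the threshold (0.14 ± 0.06, adjusted p = 0.068), and *Psma8* was higher (308 and 269 CPM against 55.7 and 60.2 CPM, 2.36 ± 0.09, adjusted p = 4.3e-11).

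The difference between the genotypes' fold changes was tested directly. All 13 axis genes were called with a more positive fold change in *Meioc*-null (median difference 0.72), and of the recombination genes 21 were more positive and 3 more negative (median 1.36), where 31.4% of all genes were called more positive and 35.7% more negative. The meiotic entry list had 4 of 9 genes more positive and 4 more negative (median 0.16). The difference was 2.95 ± 0.12 for *Prdm9*, 1.98 ± 0.10 for *Dmc1*, 2.49 ± 0.10 for *Stra8*, 3.5 ± 0.21 for *Gm4969* and 0.77 ± 0.09 for *Sycp3*. *Rad21l*, a meiotic cohesin subunit, was at 7.23 and 12.9 CPM in wild-type double-positive cells and 65.9 and 52.8 CPM in *Meioc*-null ones, against 75.1, 76.4, 30.3 and 40.3 CPM in *Meioc*-only cells, a difference of 3.52 ± 0.30 (adjusted p = 7.7e-06). Against cells with 1 or 2 UMIs of *Plk1* and *Ccnb1* the difference held for 10 axis and 17 recombination genes, with *Prdm9* at 1.36 and 11.9% of all genes called more positive, and with a mitochondrial limit of 5% for 5 and 13, with 10.7% of all genes. As the wild-type cells comprised 2 ends of the *Plk1* and *Ccnb1* range with unlike *Sycp3* and *Psma8*, each wild-type value is an average over them.

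**Figure D4:**
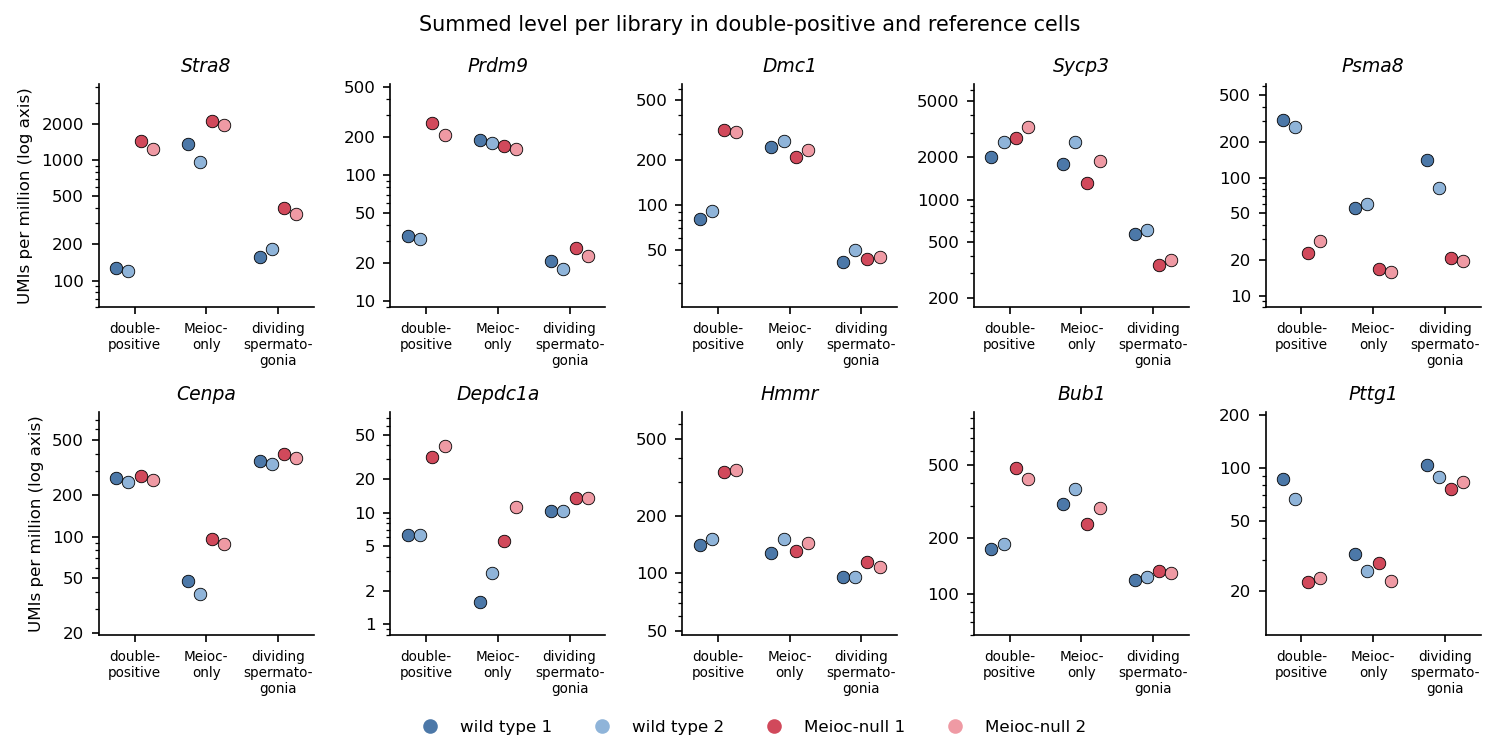
Levels (CPM, log axis) of *Stra8*, *Prdm9*, *Dmc1*, *Sycp3*, *Psma8*, *Cenpa*, *Depdc1a*, *Hmmr*, *Bub1* and *Pttg1* per library in double-positive cells, *Meioc*-only cells and dividing spermatogonia. In *Meioc*-null double-positive cells *Prdm9* (259 and 208 CPM) was above *Meioc*-only cells and *Bub1* (484 and 422 CPM) above dividing spermatogonia, while *Pttg1* (22.5 and 23.8 CPM) was below the latter.

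Whether the mitotic transcripts matched those of germ cells in mitosis was asked against the dividing spermatogonia, which passed the same *Plk1* and *Ccnb1* limit and were deeper (medians of 26796.5 to 29970 UMIs). Over both genotypes, 4709 of 8355 genes (56.4%) were called. Fitted in each genotype, a choice made after the values were seen, 6838 (81.8%) were called in *Meioc*-null, 5925 (70.9%) in wild type and 4646 (55.6%) for the difference. With such backgrounds a count of calls alone says little, and the directions and sizes are given.

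In *Meioc*-null double-positive cells the cyclin and kinase list was split, with 4 of 15 genes higher and 6 lower (median -0.08), where 42.1% of all genes were called higher and 39.7% lower. *Ccna2*, the cyclin of S and G2 phase, was at 118 and 114 CPM against 216 and 214 CPM (-0.84 ± 0.08, adjusted p = 7.2e-07). *Cks2*, which binds cyclin-dependent kinases, was at 622 and 763 CPM against 321 and 366 CPM (1.07 ± 0.06, adjusted p = 5.2e-09). *Aurkb*, the kinase of the chromosomal passenger complex, was at 14.7 and 23.1 CPM against 81.0 and 78.2 CPM (-2.03 ± 0.17), so the levels of individual mitotic kinases and cyclins did not move together.

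The spindle, kinetochore and cytokinesis list had 21 of 37 genes higher and 9 lower in *Meioc*-null (median 0.36, against 0.04 for all genes, with 42.1% of all genes called higher and 39.7% lower). *Bub1*, a kinase of the spindle checkpoint, was at 484 and 422 CPM against 133 and 130 CPM (1.84 ± 0.07, adjusted p = 2.9e-10). *Hmmr*, a spindle assembly factor, was at 339 and 346 CPM against 115 and 108 CPM (1.68 ± 0.07, adjusted p = 5.3e-10), and *Depdc1a* at 31.6 and 39.6 CPM against 13.4 and 13.6 CPM (1.46 ± 0.12, adjusted p = 2.0e-07). *Cenpa* was lower, at 274 and 260 CPM against 399 and 371 CPM (-0.47 ± 0.06, adjusted p = 9.5e-06). *Bub3*, a checkpoint partner of BUB1, was at 43.9 and 57.8 CPM against 82.2 and 92.2 CPM (-0.73 ± 0.09, adjusted p = 7.8e-06), and with a mitochondrial limit of 5% its fold change was 0.11. Thinned to 8000 UMIs, 12 of 36 genes of this list were higher and 9 lower (median 0.08), near the 35.2% and 33.3% of all genes in that setting.

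Of the condensin, cohesin and separase list, 11 of 19 genes were higher and 5 lower (median 0.41), where 42.1% of all genes were called higher and 39.7% lower. *Top2a*, the topoisomerase that untangles chromosomes, was at 1717 and 1707 CPM against 779 and 729 CPM (1.24 ± 0.05), and the condensin genes *Smc4* (1.40 ± 0.07) and *Ncapg2* (1.38 ± 0.07) also rose. *Pttg1*, which encodes securin, was lower at 22.5 and 23.8 CPM against 76.1 and 83.3 CPM (-1.73 ± 0.09, adjusted p = 4.7e-09).

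Of the anaphase-promoting complex and its regulators, 6 of 19 genes were higher and 7 lower (median -0.15), below the 42.1% and 39.7% of all genes. *Ube2s*, its chain-extending enzyme, was at 1521 and 1709 CPM against 620 and 701 CPM (1.35 ± 0.05), and the inhibitor gene *Fbxo5* rose by 0.57 ± 0.09. *Cdc20* (241 and 224 CPM against 227 and 213 CPM, 0.14 ± 0.06, adjusted p = 0.055) and *Ube2c* (231 and 252 CPM against 262 and 296 CPM, -0.15 ± 0.07, adjusted p = 0.060) missed the threshold. In the S phase list 10 of 31 genes were higher and 19 lower (median -0.50). *Mcm2*, of the replicative helicase, was at 42.1 and 33.2 CPM against 162 and 131 CPM (-1.90 ± 0.08), whereas *Ccne2*, a cyclin of S phase entry, was at 362 and 296 CPM against 90.7 and 80.9 CPM (1.99 ± 0.07).

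In wild type, where 35% of all genes were called higher and 35.9% lower, the corresponding counts were 6 higher and 7 lower for cyclins and kinases (median -0.15), 14 and 9 for the spindle list (median 0.07), 9 and 6 for the condensin list (median -0.09) and 2 and 23 for S phase (median -0.73). *Depdc1a* was lower in wild-type double-positive cells (6.27 and 6.30 CPM against 10.3 and 10.2 CPM, -0.65 ± 0.19, adjusted p = 7.7e-03). *Bub3* was higher (182 and 143 CPM against 112 and 101 CPM, 0.65 ± 0.09, adjusted p = 2.6e-05), and *Cdc20* was higher as well (395 and 354 CPM against 262 and 218 CPM, 0.70 ± 0.06).

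The difference between the genotypes was called positive for 17 and negative for 7 of the 37 spindle genes (median 0.27, with 30.4% and 25.2% of all genes). It was 2.11 ± 0.22 for *Depdc1a* (adjusted p = 1.1e-05), 1.21 ± 0.10 for *Bub1* (adjusted p = 2.0e-06) and 1.01 ± 0.10 for *Hmmr*, the last of which was 0.34 and not called after thinning. It was -1.43 ± 0.13 for *Pttg1* (adjusted p = 3.8e-06) and -1.37 ± 0.12 for *Bub3* (adjusted p = 4.0e-06), and the latter was not called with a mitochondrial limit of 5%. For *Cenpa* it was -0.11 ± 0.09 (adjusted p = 0.31). After thinning to 8000 UMIs, with the cells chosen again, 2 spindle genes were positive and 9 negative (median -0.14), where 17.1% and 16.7% of all genes were. With a mitochondrial limit of 5%, 10 were positive and 0 negative, where 11% and 6.57% of all genes were.

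The meiotic lists follow the *Meioc* and *Dmrtb1* limits against dividing spermatogonia and were not tested. Their median log2 fold changes in *Meioc*-null were 2.28 for the axis list and 2.52 for the recombination list, and in wild type 1.36 and 0.94. Summed axis transcripts of double-positive cells were 8378, 10417, 10910 and 12721 CPM, against 3606, 3799, 2625 and 2847 CPM in dividing spermatogonia. The spermatogonial enzyme *Uchl1* was at 187, 162, 103 and 107 CPM in double-positive cells and 776 to 849 CPM in dividing spermatogonia.

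**Figure D5:**
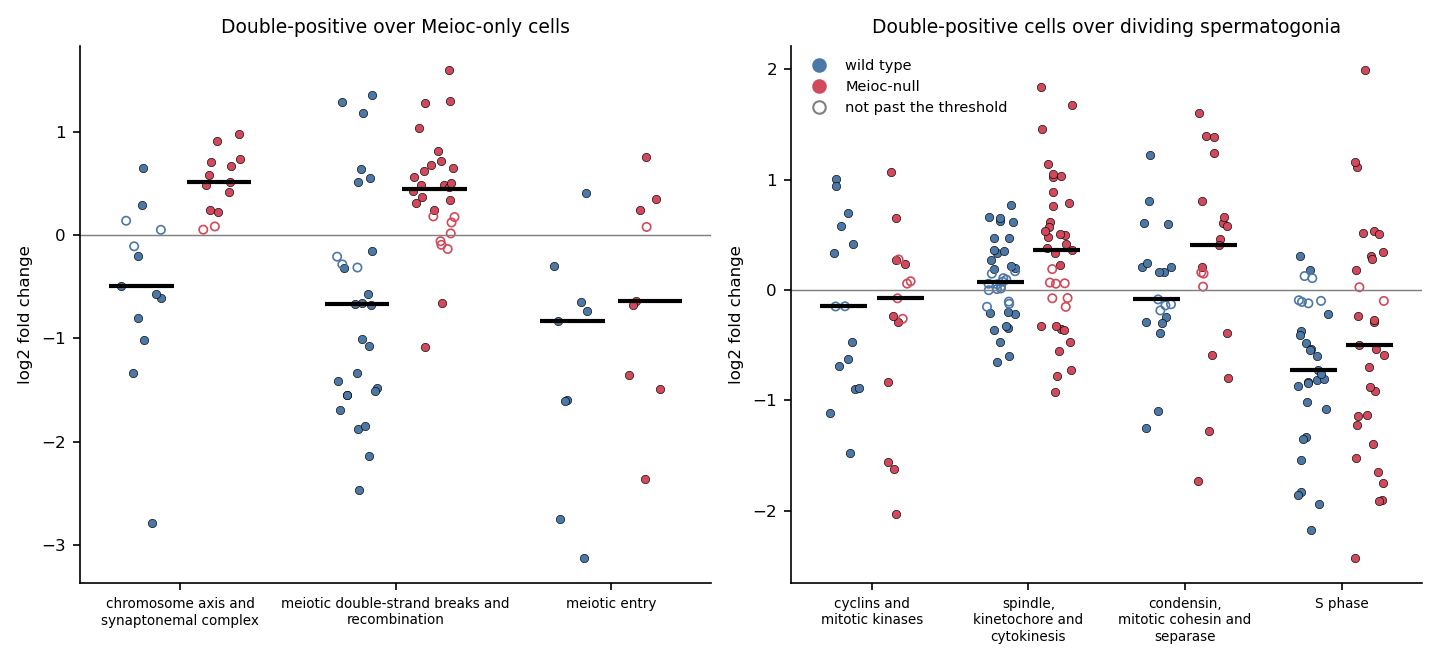
Log2 fold change of double-positive cells over *Meioc*-only cells for 3 meiotic lists (left) and over dividing spermatogonia for 4 cell-cycle lists (right), in wild type (blue) and *Meioc*-null (red), 1 point per gene, open where the threshold was not passed, with black bars at the medians. Axis genes have a median of 0.51 in *Meioc*-null and -0.50 in wild type, and spindle genes 0.36 and 0.07.

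Within the double-positive cells the genotypes were compared as wild type over *Meioc*-null, and 4692 of 7301 genes (64.3%) were called, 31.4% higher and 32.9% lower in wild type. Transcripts of meiotic entry and recombination were mostly lower in wild type. *Stra8*, at 128 and 120 CPM in wild-type cells and 1442 and 1235 CPM in *Meioc*-null cells, was lower in wild type by a log2 fold change of -3.40 ± 0.17. *Prdm9* (-2.84 ± 0.14), *Dmc1* (-1.83 ± 0.13) and *Tex15*, a gene needed for meiotic repair and silencing (-2.07 ± 0.18), were lower in wild type as well. *Gm4969* (-3.15 ± 0.18) is given as a description. Before thinning it was seen in 16.8 and 18.6% of wild-type cells, so it passed the filter on detection only through *Meioc*-null cells. It is among the lower genes of the entry list. Of the entry list 6 of 9 genes were lower and 1 higher (median -0.47), and of the recombination list 18 of 29 lower and 8 higher (median -0.68).

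The axis list had 6 of 13 genes lower in wild type and 0 higher (median -0.36). *Rad21l* of this list was low in wild-type cells and may have passed the filter on detection only through *Meioc*-null cells. Its part in these counts is therefore a description. *Sycp3* (-0.36 ± 0.20, adjusted p = 0.11) and *Sycp1* (0.21 ± 0.21, adjusted p = 0.40) missed the threshold without the littermate block and passed it with the block (-0.37, adjusted p = 3.3e-04, and 0.20, adjusted p = 0.027). With the block 8 axis genes were lower and 2 higher, where 35.6% of all genes were lower and 34.6% higher. With a mitochondrial limit of 5% 4 were lower and 5 higher (median 0.27), where 22.2% and 23.1% of all genes were. Cell-cycle genes were divided. In the spindle list 3 of 37 genes were higher in wild type and 22 lower (median -0.37), in the condensin list 3 of 19 and 11 (median -0.54), and in the cyclin and kinase list 8 of 14 and 4 (median 0.41). After thinning to 8000 UMIs the spindle list had 10 of 36 genes higher in wild type and 3 lower (median 0.11), where 20.7% of all genes were higher and 22.6% lower, and with a mitochondrial limit of 5% the median of the cyclin and kinase list was -0.30. *Bub1* (-1.29 ± 0.13) was lower in wild type, and *Pttg1* (1.74 ± 0.16) and *Bub3* (1.69 ± 0.15) higher. *Depdc1a* (-2.47 ± 0.23) was lower too, but its difference is a description. Before thinning it was seen in 13.2 and 12.2% of wild-type cells, so it passed the filter on detection only through *Meioc*-null cells. It is among the lower genes of the spindle list. For *Cenpa* (-0.01 ± 0.12, adjusted p = 0.96), *Ccna2* (0.01 ± 0.12, adjusted p = 0.97) and *Ube2c* (-0.01 ± 0.12, adjusted p = 0.93) the threshold was missed with standard errors of 0.12.

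Markers of spermatocytes did not all move one way. *Psma8* was at 308 and 269 CPM in wild-type cells and 23.0 and 29.0 CPM in *Meioc*-null cells (3.49 ± 0.14), *Gml* at 459 and 405 CPM and 45.8 and 51.3 CPM (3.18 ± 0.13), and *Tesmin* at 391 and 334 CPM and 81.1 and 85.3 CPM (2.15 ± 0.13). The *Psma8* gap lay in cells under 3 UMIs of *Plk1* and *Ccnb1* per 10000 (474 and 384 CPM against 22.2 and 27.3 CPM). At 3 to 6 per 10000 *Psma8* was at 15.6 and 49.1 CPM against 23.8 and 32.3 CPM, and the genotypes overlapped. At 6 or more they overlapped as well (31.3 and 19.7 CPM against 22.8 and 27.4 CPM). *Psma8* and *Gml* belong to a list of 4 early spermatocyte genes, which summed to 3577 and 3228 CPM in the wild-type cells and to 3857 and 3398 CPM in the *Meioc*-null ones. Its other genes, *Ly6k* (912 and 997 CPM against 1330 and 1219 CPM, -0.38 ± 0.17, adjusted p = 0.043) and *Tex101* (1899 and 1557 CPM against 2458 and 2098 CPM, -0.37 ± 0.19, adjusted p = 0.081), had the opposite sign. *Tex101* passed the threshold with the littermate block (-0.37, adjusted p = 4.3e-04), and *Ly6k* missed it without any 1 library (-0.29 to -0.49, adjusted p = 0.057 to 0.34). With a mitochondrial limit of 5% both were higher in wild type (0.62 for *Ly6k* and 0.46 for *Tex101*). *Tesmin* was not called after thinning (0.32). Of 8 pachytene genes 5 passed the filter on detection, and no count is read from them, because a gene nearly absent from *Meioc*-null cells could pass only through the wild-type cells and had to differ. *Piwil1* was at 315 and 162 CPM in wild-type cells and 0.41 and 0.489 CPM in *Meioc*-null cells, the lactate dehydrogenase *Ldhc* at 604 and 272 CPM and 3.28 and 3.81 CPM, and the sperm-cell lipid binder *Fabp9* at 956 and 804 CPM and 7.18 and 15.7 CPM. Dividing spermatogonia of the wild-type libraries also held *Ldhc* at 764 and 252 CPM and those of *Meioc*-null at under 1 CPM, so its background differed between the genotypes. The part of that background in these differences was not tested.

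A list of transcriptional repressors named by the study and subunits of a Polycomb complex had 6 of 9 tested genes lower in wild type and 1 higher (median -0.59), where 32.9% of all tested genes were lower and 31.4% higher. *Mga*, a subunit of this complex, was at 103 and 102 CPM in wild-type cells and 268 and 229 CPM in *Meioc*-null cells (-1.24 ± 0.12). *Pcgf6*, of the same complex, was at 140 and 132 CPM and 54.3 and 47.0 CPM (1.46 ± 0.13), but at -0.46 after thinning to 8000 UMIs. *E2f6* was seen in too few cells to be tested (14.7, 11.3, 13.4 and 12.5 CPM), and *Suz12* was lower in wild type (-0.93 ± 0.13).

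A list of p53 targets and stress genes had 4 of 10 tested genes higher in wild type and 2 lower, near the 31.4% and 32.9% of all tested genes. *Sesn2*, a stress-response gene, was at 9.16 and 4.54 CPM in wild-type cells and 34.8 and 24.8 CPM in *Meioc*-null cells (-2.16 ± 0.26). It too is a description, because at that wild-type level it passed the filter on detection only through *Meioc*-null cells. *Mdm2*, the ubiquitin ligase of p53, was at 143 and 144 CPM and 84.0 and 92.7 CPM (0.73 ± 0.12) but was not called after thinning (0.24). With a mitochondrial limit of 5% the list had 2 of 11 genes higher and 6 lower, where 23.1% of all genes were higher and 22.2% lower. Among the genes with the largest differences, *Rrm2b*, a ribonucleotide reductase subunit, was at 9.64 and 12 CPM in wild-type cells and 153 and 144 CPM in *Meioc*-null cells (-3.71 ± 0.16). *Nacad* was at 2.41 and 4.11 CPM in wild-type cells and 43.9 and 40.4 CPM in *Meioc*-null cells (-3.57 ± 0.25). At that wild-type level *Nacad* passed the filter on detection only through *Meioc*-null cells, and *Rrm2b* may have done so too. Both differences are therefore a description. *Sgpl1*, the sphingosine phosphate lyase, was at 29.9 and 24.0 CPM and 319 and 216 CPM (-3.29 ± 0.17).

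Germ-cell markers and markers of other cells were read beside these results. *Ddx4* was at 720 and 673 CPM in wild-type double-positive cells and 323 and 293 CPM in *Meioc*-null ones (1.21 ± 0.14, and 0.27 and not called after thinning), and *Dazl*, an RNA-binding protein of germ cells, at 1559, 1607, 2212 and 2197 CPM. The 6 Sertoli genes summed to 72.1, 42.5, 106 and 49.9 CPM in double-positive cells, against 111, 76, 147 and 66 CPM in *Meioc*-only cells. The 5 peritubular myoid genes summed to 83.3 to 151 CPM and the 6 Leydig genes to 7.71 to 22.3 CPM, and in these the genotypes overlapped. The 5 endothelial genes summed to 19.8 and 14.7 CPM in wild-type cells and 21.5 and 22.3 CPM in *Meioc*-null cells, and the 6 macrophage genes, of which 4, 1, 1 and 1 were at 0, to 0.723, 1.03, 2.77 and 9.87 CPM, so both were low and did not overlap between the genotypes. Undifferentiated spermatogonial genes summed to 79.3 and 74.0 CPM in wild-type cells and 10.6 and 7.2 CPM in *Meioc*-null cells, of which *Id4* made up 72.1 and 67.1 CPM and 1.85 and 1.66 CPM. The part of these transcripts in the results was not tested.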

How the data were processed

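Per the labels, the 4 libraries were paired by litter, and replicate numbers mark the batches. Deviations of same-numbered libraries from their genotype means, on log2(CPM + 1), correlated at 0.31. The authors aligned 10x Genomics 3′ reads with Cell Ranger (version 4.0.0 in the submitters' processing notes) to its mouse mm10 reference and deposited raw UMI counts with no normalization. Tags are counted near the 3′ end, and intact cells with more RNA give more UMIs, so limits in UMIs favour deep cells.

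Barcodes with more than 1000 genes and less than 10% mitochondrial UMIs were kept, and doublets were marked with Scrublet (scanpy 1.11.5) but not removed. Counts summed per library and population were tested with edgeR 4.0.16 (TMM, robust quasi-likelihood, Benjamini-Hochberg adjustment) in R 4.3.3. Comparisons of populations had the library as a block, and the genotype comparison had no block. *Meioc*, *Plk1*, *Ccnb1* and *Dmrtb1* were not tested. Fits in each genotype were added after the values were seen. Lists of genes could be named, and beside them the 10 genes of largest change in each direction with at least 20 CPM and the same direction in every library. The cells and the lists were chosen with earlier results of these data known. In simulated counts 100% of genes changed by a log2 size of 1 were recovered against *Meioc*-only cells, and 77.6% of differences of that size between genotypes. These counts came from a shared profile with a fixed spread and no differences between libraries. Recovery in the data themselves was therefore not measured. Alternatives included DESeq2 1.42.0, other limits, thinning and leaving out each library.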

Additional observations from a re-analysis of the deposited data

Results flagged for a closer look

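The fold change of double-positive over *Meioc*-only cells differed between the genotypes for 4374 of 6516 genes by the test of the difference in edgeR. Among the named genes the difference, *Meioc*-null minus wild type on the log2 scale, was 3.52 for *Rad21l*, 3.5 for *Gm4969*, 2.95 for *Prdm9* and 2.49 for *Stra8*. The fold change over dividing spermatogonia differed for 4646 of 8355 genes, with differences of 2.11 for *Depdc1a*, 1.21 for *Bub1*, -1.37 for *Bub3* and -1.43 for *Pttg1*. Each genotype had 2 libraries, too few to look for a library that stands apart within its group.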

How the results depend on the processing

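The share of double-positive cells (difference 5.69 percentage points of kept cells, 15.8 of *Meioc*-expressing cells) turned with a mitochondrial limit of 5% (-1.57 and -8.81). It was 3.00 and 7.43 after thinning to 8000 UMIs, 7.55 and 20.4 with at least 2 UMIs of *Plk1* and *Ccnb1*, and 3.79 and 10.4 with at least 4. With no *Dmrtb1* UMI allowed the difference among *Meioc*-expressing cells was 19.4. Leaving out each library gave 5.24 to 6.14 and 13.6 to 18. The difference in cells holding both gene sets (47.5 points) was 52.6 at 5000 UMIs and 30.7 with common limits, and 46.2 to 48.8 leaving out each library.

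Genes called against *Meioc*-only cells over both genotypes (228) numbered 738 with DESeq2, 816 with no filter, 440 with detection in 10% of cells, 602 with the 5% limit, 68 after thinning, 624 without the library block, 3570 with *Meioc*-null libraries alone, 0 against cells with 1 or 2 UMIs, and 0 to 14 leaving out each library. In *Meioc*-null (3360) there were 2166 with DESeq2, 5486 with no filter, 607 with the 5% limit, 1328 after thinning, 1405 without the block, 152 against cells with 1 or 2 UMIs and 2123 to 3565 leaving out each library. In wild type (4678) there were 7327 with no filter, 2822, 2927 and 2172 under the 5% limit, thinning and that reference, and 3923 to 4726 leaving out each library. For the difference (4374) the same settings gave 1063, 2642 and 1388, and 3697 to 4217.

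Against dividing spermatogonia, no filter gave 7379 over both genotypes and 10752 in *Meioc*-null. The 5% limit gave 3113 over both, 3493 in *Meioc*-null and 1517 for the difference, and thinning gave 2388, 3606, 2029 (wild type) and 1776 (difference). Without the block the difference had 3017. Leaving out each library gave 3317 to 4287, 6054 to 6990, 4640 to 5962 and 4020 to 4121 (both genotypes, *Meioc*-null, wild type, difference). *Bub3* in *Meioc*-null turned to 0.11 with the 5% limit.

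Between genotypes (4692), thinning gave 2244 and leaving out each library 4042 to 4460. *Pcgf6* turned to -0.46 after thinning, and *Ly6k* to 0.62 with the 5% limit. With the littermate pairing as a block 5130 genes were called, of which 4690 were also called without it, with the same sign. Fewer cells remain under the 5% limit and thinning. The cause of the changes was not tested under these or any other settings.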
